A study of Rattus norvegicus with 24 samples.

Results

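The 6 arrays of rats aged 24 months were set against the 6 arrays of rats aged 4 months, each tissue being compared with itself. These were 12 of the 24 arrays analysed here, chosen by their age labels and by no measured value, and the tissues were hypothalamus, pituitary, liver, kidney, bone and spleen lymphocyte. The animals were male Sprague-Dawley rats, an outbred strain, left to age without treatment, and the study also sampled them at 10 and 18 months to ask how age changes in one tissue relate to those in others. Each array carried RNA of 1 tissue mixed in equal amounts from 10 rats, and at each age all tissues were taken from the same 10 animals. The 24-month and 4-month groups therefore differed in age and in the animals taken, and age and cohort cannot be told apart. The pooling left no value for a single rat, so that every p-value below measures the spread between the tissues of these pools and not the spread between rats.

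Expression was given as the signal of an Affymetrix RAE230A array, a brightness that the authors scaled to the same target on every array. Signals below 100 were raised to 100, log2 was taken, and a difference is log2 of the signal at 24 months minus that at 4 months, so that 1 is a doubling. Of 10411 named genes, 8510 reached 100 on at least 6 of the 12 arrays and were tested with limma, with tissue as a block and Benjamini-Hochberg adjustment over all 8510. Every SE given is the moderated one of this fit, for which limma draws a gene's spread toward that of all genes, so that it is not the plain SE of the 6 differences. Array medians lay between 217 and 277. Of the 42 tissue markers measured, 36 were higher on both arrays of the tissue they mark than on every array of the other tissues. The exceptions were Ghrhr, Cd4, Cd79b, Apob, Alpl and Pomc, the last of which did not reach 100 in the hypothalamus. The log2 ratio of the 3 prime to the 5 prime Actb control probe set, which rises as RNA is broken down, was lower at 24 months than at 4 months in 5 of the 6 tissues. It was 1.88 at 24 months and 3.74 at 4 months in spleen lymphocyte, and 1.43 at 24 months and 2.85 at 4 months in liver. It was higher at 24 months only in pituitary, at 2.42 against 2.13 at 4 months.

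No gene passed the threshold over the 6 tissues in either direction (0.0% of 8510 each). At an unadjusted p under 0.05 there were 233 genes higher at 24 months (2.74%) and 151 lower (1.77%). The signs agreed in 6 of 6 tissues for 129 genes that were higher at 24 months (1.52%) and 107 that were lower (1.26%), with median differences of 0.37 and -0.32. A mean difference of at least 0.5 in size was found for 45 of these 236 genes. The 3 lowest adjusted p-values in the limma fit belonged to 2 class I histocompatibility genes, RT1-CE10 and RT1-CE12, which were higher at 24 months, and to the fibrillar collagen gene Col3a1, which was lower.

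The RT1 complex is the major histocompatibility complex of the rat. Its class I genes encode cell surface molecules that present peptides from inside the cell to CD8 T cells. The peptides are cut by the proteasome, for which interferon-induced subunits such as Psmb8 and Psmb9 are exchanged in inflamed tissue, then carried by the Tap transporter and loaded with B2m. Class I promoters are known to carry a kappa B site and an interferon-stimulated response element, through which inflammatory and interferon signals act. With 1 probe set kept per gene, RT1-CE10, RT1-CE16 and RT1-CE12 had the largest mean differences of the class I genes. The stretches below are the 250 bases before their annotated RefSeq starts, all on the minus strand of chromosome 20 in GRCr8. They are shown because these genes were among those furthest apart between the ages, and capitals mark the kappa B core GGGATTCCC and the interferon-stimulated letters TTTCACTTC where a search of both strands found them.
RT1-CE10: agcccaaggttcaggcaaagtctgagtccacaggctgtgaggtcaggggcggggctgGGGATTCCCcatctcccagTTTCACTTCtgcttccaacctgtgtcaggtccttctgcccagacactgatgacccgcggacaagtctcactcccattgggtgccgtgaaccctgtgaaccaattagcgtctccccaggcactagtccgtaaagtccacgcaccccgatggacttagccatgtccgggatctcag
RT1-CE12: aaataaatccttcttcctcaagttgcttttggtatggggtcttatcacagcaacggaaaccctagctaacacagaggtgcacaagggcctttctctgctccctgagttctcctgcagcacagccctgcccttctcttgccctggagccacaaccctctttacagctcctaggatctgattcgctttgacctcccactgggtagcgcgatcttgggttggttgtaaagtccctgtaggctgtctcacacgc
RT1-CE16: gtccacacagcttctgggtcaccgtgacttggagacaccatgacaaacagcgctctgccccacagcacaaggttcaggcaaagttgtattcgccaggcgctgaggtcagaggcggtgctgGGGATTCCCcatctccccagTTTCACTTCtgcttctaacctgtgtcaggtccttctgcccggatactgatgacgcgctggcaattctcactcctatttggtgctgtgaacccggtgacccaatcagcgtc
The windows were chr20:3384980-3385229 for RT1-CE10, chr20:3347226-3347475 for RT1-CE12 and chr20:3265444-3265693 for RT1-CE16. Counting the base just before the start as -1, the kappa B core began at -193 and the interferon-stimulated letters at -174 in RT1-CE10, and at -130 and -110 in RT1-CE16. Neither was found in the window of RT1-CE12. The kappa B core was present in 91 of the 33469 windows of that length before rat genes (0.272%), the interferon-stimulated letters in 128 (0.382%) and both in 8 (0.0239%). Of the 12 windows of RT1 class I genes in the list used below, 4 held the kappa B core and 6 the interferon-stimulated letters. A match is a description of the letters only.

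RT1-CE10 had signals at 24 months of 633 in hypothalamus, 2249 in pituitary, 2940 in spleen lymphocyte, 2316 in liver, 1562 in kidney and 2763 in bone, against 366, 877, 1200, 1029, 842 and 895 at 4 months in the same order. Every tissue was higher at 24 months, although the 24-month hypothalamus lay below 5 of the 6 arrays of 4 months. The mean difference was 1.19 ± 0.15 (SE, n = 6 tissue pairs) with an adjusted p of 0.0746 in limma, and it ran between 0.79 in hypothalamus and 1.63 in bone. RT1-CE12 had 2869 in hypothalamus, 8205 in pituitary, 24740 in spleen lymphocyte, 12437 in liver, 6174 in kidney and 8131 in bone at 24 months, against 1548, 4070, 10619, 7858, 3476 and 3519 at 4 months. Its mean difference was 0.97 ± 0.14 (SE, n = 6; adjusted p = 0.117, limma), with liver smallest at 0.66 and spleen lymphocyte largest at 1.22. RT1-CE16 had a mean difference of 0.99 ± 0.22 (SE, n = 6; adjusted p = 0.938, limma). Its signals at 24 months were 216, 498, 644, 212, 294 and 811 in the same tissue order, against 74, 171, 332, 251, 92 and 393 at 4 months. Liver alone went the other way for RT1-CE16, at -0.25, while the other 5 tissues lay between 0.95 and 1.56. Both RT1-CE10 and RT1-CE12 passed the threshold under some other settings and not under others. With a floor of 200 their adjusted p-values in limma were 0.0250 and 0.0345. With the Actb ratio as a covariate RT1-CE10 had a mean difference of 1.22 and an adjusted p of 0.9998, and without the spleen lymphocyte and liver pairs, where that ratio differed most, it had 1.17 and 0.875.

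**Figure D1:**
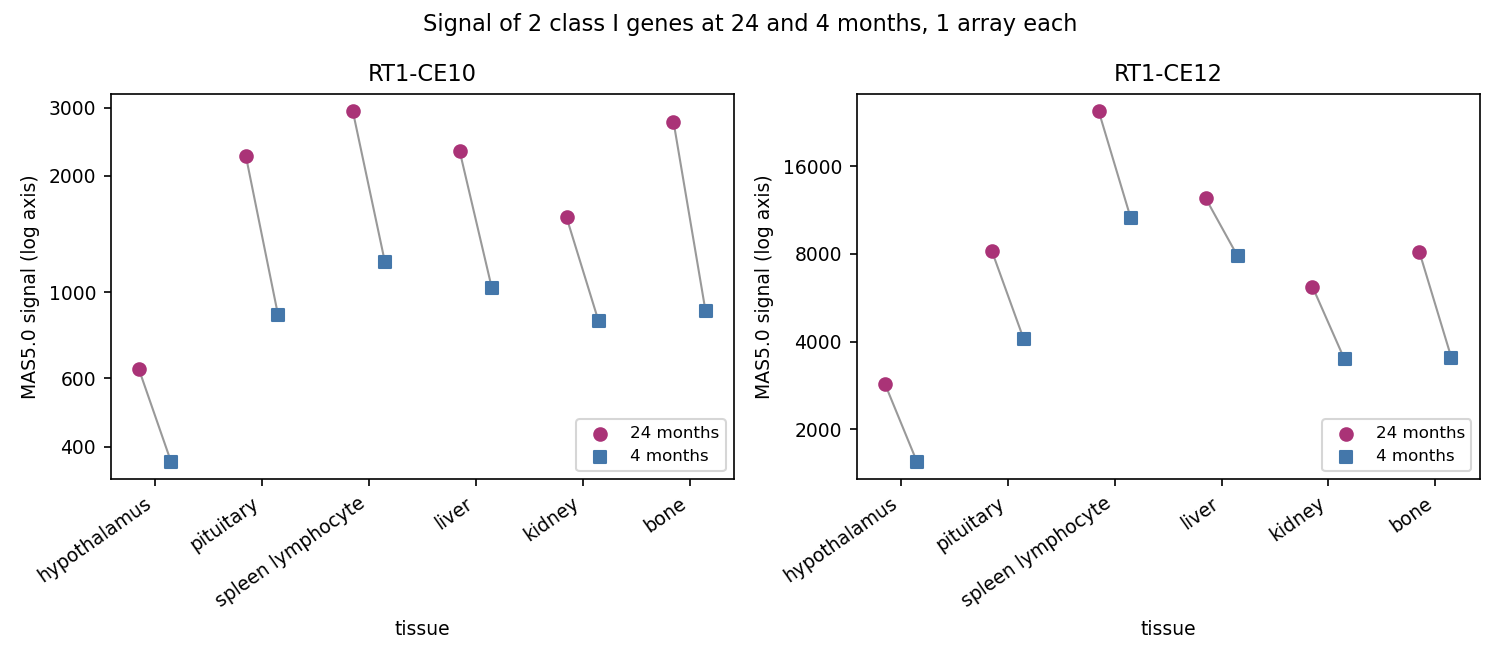
Signal on a log axis of RT1-CE10 (left) and RT1-CE12 (right) in 6 tissues, 1 array each at 24 months (circles) and 4 months (squares), with a line joining the ages of a tissue. In both panels the 24-month point lies above the 4-month point in every tissue.

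The class I genes are close copies of one another, and their probe sets can bind RNA of several members, so that a signal is uncertain as to the gene. The array held 20 probe sets under 12 class I symbols. Among the 15 probe sets that reached 100 on at least 6 arrays, 14 had a positive mean difference, 1 a negative one, and 2 were positive in 6 of 6 tissues, with a median of 0.37. RT1-T24-3 was at 0.01, with hypothalamus at -1.75 and spleen lymphocyte at 1.18. RT1-CE5 was at 0.40 on the probe set kept for it, while its others gave 1.08, 0.76, 0.22 and 0.00. The RT1 complex also varies between rats of an outbred strain, and the sequences carried by either cohort were not analysed here.

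Over the list of class I and peptide loading genes, which leaves out RT1-A, RT1-A3, RT1-N2 and RT1-T24-3, 17 of 20 tested members had a positive mean difference and 3 a negative one, against 51.8% positive among all 8510 genes. The median was 0.25, against 0.01 over all genes. Higher values in 6 of 6 tissues were found for 4 of the 20, against 1.52% of all genes, and 5 had an unadjusted p under 0.05, against 2.74%. Besides RT1-CE10 and RT1-CE12, these 4 were the immunoproteasome subunits Psmb8 and Psmb9. Psmb8 had 318, 626, 3463, 2045, 492 and 3443 at 24 months in the order above, against 221, 448, 2811, 1015, 400 and 2400 at 4 months. Its mean difference was 0.52 ± 0.15 (SE, n = 6; adjusted p = 0.938, limma), and that of Psmb9 was 0.42 ± 0.17. B2m, the invariant light chain of class I molecules, had a mean difference of 0.27 ± 0.17 (SE, n = 6), positive in 4 tissues and largest in bone at 0.95. The third immunoproteasome subunit, Psmb10, was at -0.005, with 3 tissues positive and 3 negative. The chaperones Calr and Canx were at -0.13 and -0.07.

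RT1-CE10 was not intermediate at the middle ages. Its mean log2 signal over the 6 tissues was 9.67 at 4 months, 8.60 at 10 months, 9.30 at 18 months and 10.86 at 24 months. At 10 months it was lower than at 4 months in 6 of 6 tissues, by a mean difference of -1.08, and at 24 months it was higher than at 18 months in 6 of 6, by 1.57. RT1-CE12 was level over the first 3 ages, with means of 12.07, 12.25 and 12.06, and stood at 13.04 at 24 months. Psmb8 followed another course, with means of 9.65, 9.91, 10.00 and 10.18 in order of age.

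Among the other genes higher at 24 months in every tissue, the smallest tissue difference was largest for Hpgds, Pth1r, Tspo, Naprt, Cxcl10, Ntn1 and Gigyf2. These genes belong to different processes. Hpgds makes prostaglandin D2 in mast cells and other blood cells, Pth1r is the receptor of parathyroid hormone, and Tspo is a protein of the outer mitochondrial membrane that marks activated macrophages and microglia. Naprt makes NAD from nicotinic acid, Cxcl10 is an interferon-induced chemokine, Ntn1 is a guidance protein of axons, and Gigyf2 takes part in translational repression. Their mean differences were 0.53 for Hpgds, 0.57 for Pth1r, 0.51 for Tspo, 0.52 for Naprt, 0.46 for Cxcl10, 0.39 for Ntn1 and 0.42 for Gigyf2, each with an adjusted p of 0.938 in limma. Tspo had 437 in hypothalamus, 701 in pituitary, 2947 in spleen lymphocyte, 463 in liver, 1427 in kidney and 5956 in bone at 24 months, against 340, 561, 2495, 344, 1178 and 2206 at 4 months. The bone difference of 1.43 exceeded those of the other tissues, which lay between 0.24 and 0.43, and without bone the mean was 0.33. Naprt was the most even of the 7, with differences between 0.22 in kidney and 0.66 in hypothalamus. For the 3 of these genes that have other probe sets, those did not show the same value. They gave -0.45 for Pth1r, -0.01 and 0.00 for Ntn1, and 0.04 for Gigyf2, with 2 tissues positive and 4 negative. In bone the 2 probe sets of Pth1r opposed each other, the kept one at 0.44 and the other at -3.12.

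**Figure D2:**
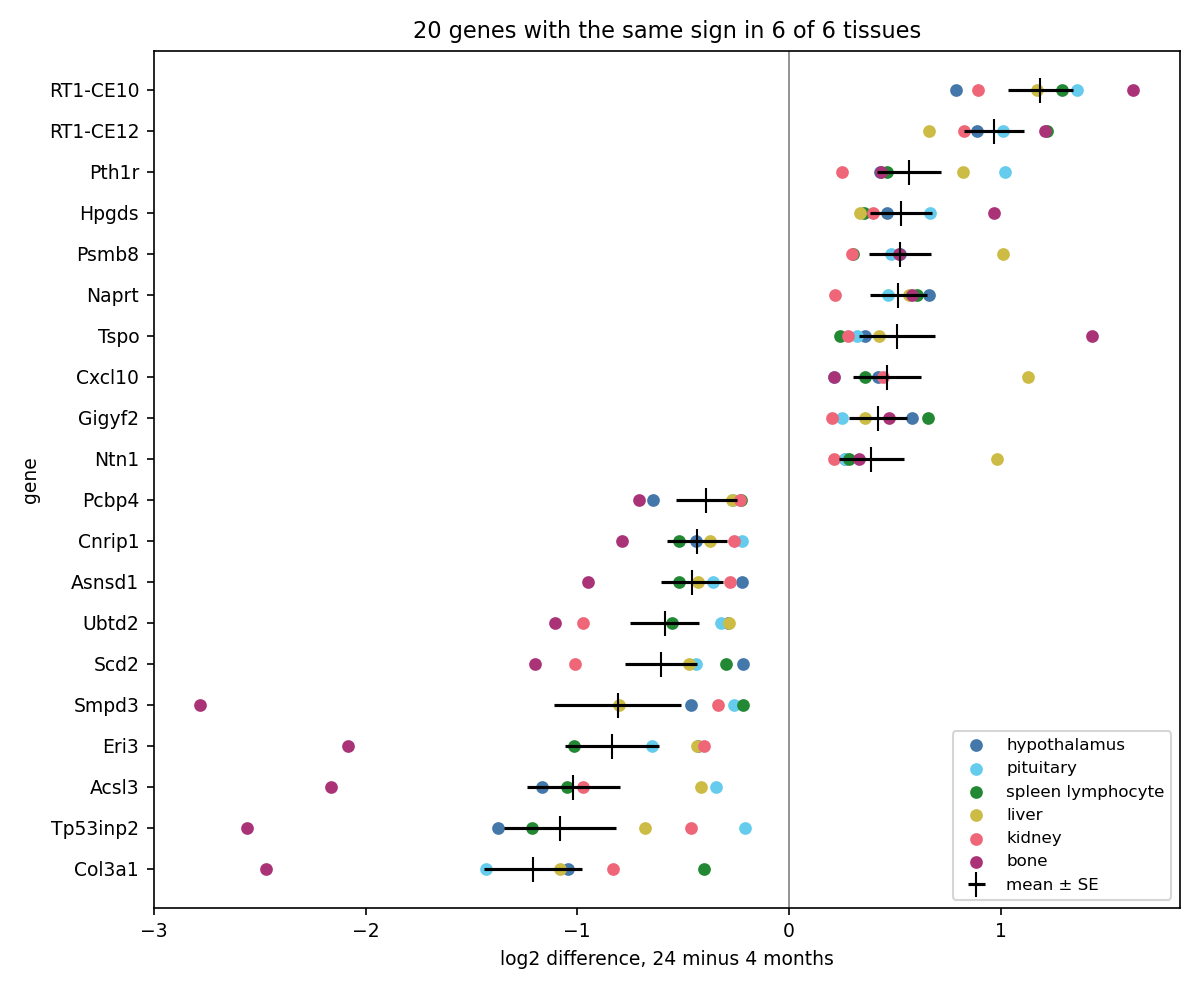
Log2 difference, 24 minus 4 months, of the 10 genes of each direction whose sign agreed in 6 of 6 tissues and whose smallest tissue difference was largest. Each coloured point is 1 tissue and each black bar is the mean with its SE. RT1-CE10 and RT1-CE12 stand highest among the positive genes, and Col3a1, Tp53inp2 and Acsl3 lowest among the negative ones.

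Immune genes outside class I and class II were mostly positive, and none passed the threshold. Over all 8510 genes, for comparison, 51.8% had a positive mean difference, 2.74% were higher at an unadjusted p under 0.05 and 1.52% were higher in 6 of 6 tissues. In the interferon-induced list 23 of 24 tested genes had a positive mean difference (median 0.21), 4 with an unadjusted p under 0.05 and 2 positive in 6 of 6 tissues. The tissues were uneven, bone having the largest median at 0.63. In kidney 9 of the 23 genes measured at both ages were higher at 24 months and 14 lower (median -0.02). Irf7, the transcription factor that amplifies the interferon response, was at 0.46 and Ifit3, an antiviral effector, at 0.43. Ifi27l2b, an interferon-induced gene, was at 0.68, with 2.23 in bone. The chemokine and cytokine list had 22 of 24 positive (median 0.18), again with 4 genes at an unadjusted p under 0.05 and 2 positive in 6 of 6. Ccl5, which attracts T cells and monocytes, had 191 in hypothalamus, 306 in pituitary, 22305 in spleen lymphocyte, 1098 in liver, 482 in kidney and 604 in bone at 24 months, against 185, 156, 19056, 582, 268 and 218 at 4 months. The hypothalamus pair of Ccl5 differed by 0.04 and the bone pair by 1.47, with a mean of 0.75 ± 0.19 (SE, n = 6; adjusted p = 0.938, limma). The inflammatory genes Il1b and Ccl3 were at 0.50 and 0.44. The class II list, whose products present peptides to CD4 T cells, had 8 of 10 positive with a median of 0.07 and no gene in 6 of 6, and its tissues opposed each other. In liver 9 of the 10 were higher at 24 months, whereas 9 were lower in pituitary, 9 in spleen lymphocyte and 8 in bone. Without spleen lymphocyte and liver 5 were positive and 5 negative.

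Genes that mark the immune cells themselves were mostly positive too. Among all genes 51.8% were positive and 2.74% were higher at an unadjusted p under 0.05 in limma. In the T cell list 13 of 15 tested genes were positive (median 0.18, 4 at an unadjusted p under 0.05), and the summed signal of the list ran between 3085 and 90255 over tissues at 24 months, and between 2066 and 67621 at 4 months. Nkg7, a cytotoxic granule gene, was positive in 6 of 6 tissues with a mean of 0.71 ± 0.22 (SE, n = 6), Gzmk was at 0.58, and Cd3e, a chain of the T cell receptor complex, at 0.49. The negative T cell genes were Tcf7 at -0.16 and Cd28 at -0.04. In bone the T cell list had no single direction. Of the 13 genes measured at both ages there, 7 were lower at 24 months and 6 higher, with a median of -0.34. At least 2-fold higher were 2 of them, and 0 were 2-fold lower. Over the 15 tested genes the bone median was 0.17, and the summed bone signal of the list was higher at 24 months, by 0.56 in log2. In the macrophage list 16 of 19 were positive (median 0.33, 4 at an unadjusted p under 0.05), with sums between 13918 and 83179 at 24 months and between 13080 and 73660 at 4 months. Tyrobp, a signalling adaptor of myeloid cells, was positive in 6 of 6 at a mean of 0.35, Fcer1g was at 0.46 and the complement gene C1qb at 0.45. The negative macrophage genes were Spp1 at -0.45, Csf1r at -0.29, lower in 5 tissues, and Clec4f at -0.11. In such bulk tissue more cells of a type and more RNA per cell cannot be told apart. The part of these cells in the class I and interferon values was not tested.

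The complement and acute phase list had 17 of 23 positive, against 51.8% of all genes, and a median of 0.21. In this list 6 genes were higher at an unadjusted p under 0.05 in limma, against 2.74% of all genes. Lcn2, an iron-binding defence protein of neutrophils and injured epithelium, had 103, 491, 171, 755, 255 and 14821 at 24 months in the tissue order above, against 103, 347, 39, 212, 179 and 3214 at 4 months. Its mean difference was 0.97 ± 0.27 (SE, n = 6; adjusted p = 0.938, limma), with liver at 1.83, bone at 2.21 and hypothalamus at -0.004. C1s, a protease of the classical complement pathway, was at 0.61 and C3, on which the complement pathways converge, at 0.58. Serpina3n, an acute phase protease inhibitor, was positive in 6 of 6 tissues at a mean of 0.44. Under quantile normalization and median centring the medians of the class I, interferon, chemokine, T cell, macrophage and complement lists stayed positive, the smallest being 0.14 for chemokines under median centring. Without bone, and without spleen lymphocyte and liver, the medians of these 6 lists lay between 0.11 and 0.24.

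Collagen and matrix genes were mostly negative, and the size of this rested on bone. Of 57 tested, 47 had a negative mean difference and 10 a positive one (median -0.26), 4 had an unadjusted p under 0.05 in that direction, against 1.77% of all genes, and 2 were lower in 6 of 6 tissues, against 1.26%. Without bone 35 were negative and 22 positive, with a median of -0.03. Of the genes measured at both ages, most were higher at 24 months in hypothalamus (33 of 54) and liver (29 of 47). Most were lower in pituitary (37 of 58), spleen lymphocyte (21 of 35), kidney (36 of 56) and bone (57 of 62). Col3a1, the fibrillar collagen of soft tissue and vessel walls, had 300 in hypothalamus, 364 in pituitary, 150 in spleen lymphocyte, 1423 in liver, 863 in kidney and 1167 in bone at 24 months, against 619, 981, 198, 3007, 1534 and 6465 at 4 months. The mean difference was -1.21 ± 0.23 (SE, n = 6; adjusted p = 0.784, limma), with bone at -2.47 and spleen lymphocyte at -0.40. Col1a1, the main collagen of bone, had 338, 242, 180, 275, 214 and 8682 at 24 months in the same order, against 386, 349, 320, 410, 433 and 16758 at 4 months. Every pair of Col1a1 was lower at 24 months, and its mean difference was -0.68 ± 0.15 (SE, n = 6; adjusted p = 0.938, limma). Biglycan (Bgn), a small proteoglycan that binds collagen, was at -0.53 and fibrillin 1 (Fbn1), of elastic microfibrils, at -0.43. Lox, which cross-links collagen, and Tnc, a matrix glycoprotein, averaged -0.88 and -0.74, and most of each mean lay in bone, at -4.06 and -3.38. Without bone they averaged -0.24 and -0.21. Most of the Col3a1 difference was present at the first interval. Its mean log2 signal was 10.27 at 4 months, 9.15 at 10 months, 9.26 at 18 months and 9.06 at 24 months, and at 10 months it was lower than at 4 months in 6 of 6 tissues.

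**Figure D3:**
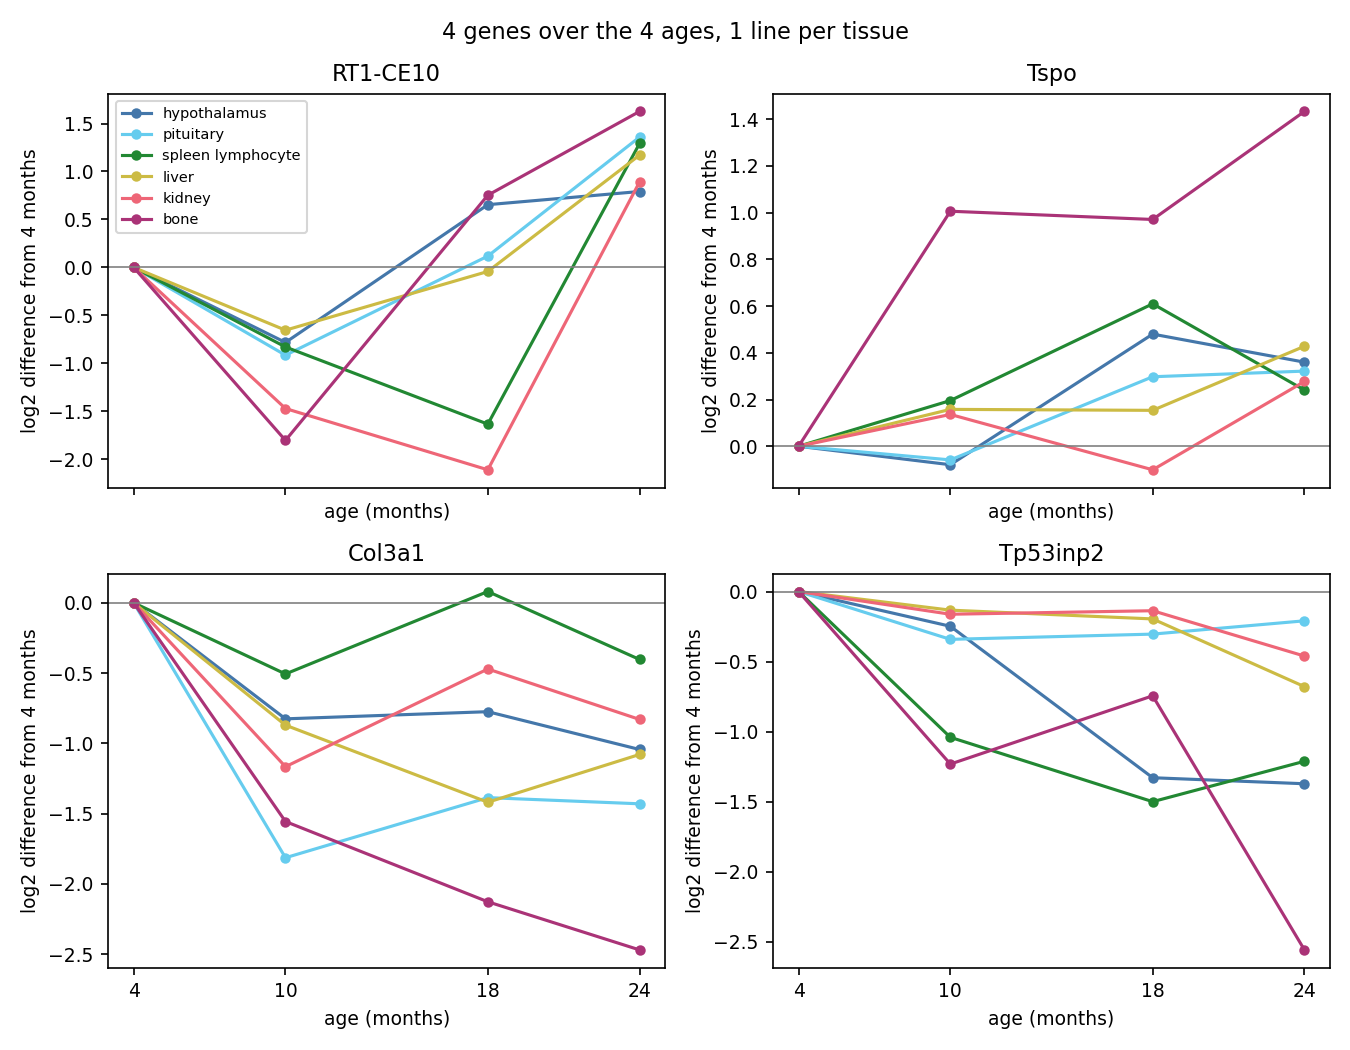
Log2 difference from 4 months at 4, 10, 18 and 24 months for RT1-CE10, Tspo, Col3a1 and Tp53inp2, 1 line per tissue and 1 array per point. RT1-CE10 lies below its 4-month level in every tissue at 10 months and above it in every tissue at 24 months, whereas Col3a1 and Tp53inp2 are already below it in every tissue at 10 months.

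Among the other genes lower in every tissue, 2 act on fatty acids. Acsl3 activates long-chain fatty acids and serves lipid droplet formation. It had 616 in hypothalamus, 682 in pituitary, 120 in spleen lymphocyte, 145 in liver, 367 in kidney and 122 in bone at 24 months, against 1381, 867, 249, 193, 720 and 545 at 4 months. The mean difference was -1.02 ± 0.22 (SE, n = 6; adjusted p = 0.938, limma). Scd2, a desaturase that makes monounsaturated fatty acids in brain and other tissues, had 8089, 2968, 1191, 185, 1126 and 926 at 24 months in the same order, against 9391, 4028, 1462, 257, 2269 and 2124 at 4 months. Kidney and bone were furthest apart for Scd2, at -1.01 and -1.20, and the mean was -0.61 ± 0.17, but its other 2 probe sets gave means of -0.005 and 0.30. Over the fatty acid list 21 of 48 tested genes were positive and 27 negative (median -0.02), and the median was 0.01 under quantile normalization. At an unadjusted p under 0.05 in limma, 4 of the 48 were lower and 1 higher, against 1.77% and 2.74% of all genes. Acly, which supplies acetyl-CoA for synthesis, was at -0.40 and Scd at -0.50. Cd36, a fatty acid transporter, was at 1.05 ± 0.27 (SE, n = 6), between 1.19 and 1.92 in spleen lymphocyte, liver, kidney and bone and below 100 at both ages in hypothalamus and pituitary. In the cholesterol synthesis list 17 of 21 were negative, with a median of -0.10 and no gene at an unadjusted p under 0.05.

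Tp53inp2, a protein that takes part in autophagy, had 494 in hypothalamus, 1044 in pituitary, 337 in spleen lymphocyte, 1358 in liver, 1000 in kidney and 132 in bone at 24 months, against 1279, 1207, 780, 2174, 1377 and 776 at 4 months. Its mean difference was -1.08 ± 0.27 (SE, n = 6; adjusted p = 0.938, limma), with bone at -2.56 and pituitary at -0.21. It was lower than at 4 months in 6 of 6 tissues at 10 months and at 18 months too, with means of 10.21, 9.69, 9.51 and 9.13 in order of age. The remaining genes named by the same rule were Eri3, an exonuclease homologue (-0.84), Smpd3, a sphingomyelinase needed in bone and cartilage (-0.81), Ubtd2 (-0.59), Asnsd1 (-0.46), Cnrip1, which binds the cannabinoid receptor (-0.43), and Pcbp4, an RNA-binding protein (-0.39). The difference was largest in size in bone for each of these 6 genes, and without bone the mean of Smpd3 was -0.41 and that of Eri3 -0.59.

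Genes under daily or hormonal control were split. In the glucocorticoid response list 8 of 20 were positive and 12 negative (median -0.03). At an unadjusted p under 0.05 in limma, 3 of the 20 were higher and 2 lower, against 2.74% and 1.77% of all genes. Tsc22d3, a rapid glucocorticoid target that restrains inflammation, had 893, 1335, 2877, 733, 1014 and 868 at 24 months in the tissue order above, against 1339, 1638, 3020, 2315, 1944 and 1192 at 4 months. It was lower in 6 of 6 tissues, by -0.07 in spleen lymphocyte and -1.66 in liver (mean -0.67 ± 0.20, SE, n = 6), and another glucocorticoid target, Sgk1, was at -0.42. Hsd11b1, which regenerates active glucocorticoid inside cells, was positive in 6 of 6 at a mean of 0.54 ± 0.23, most of it in spleen lymphocyte at 1.92, without which it was 0.26. Pck1, the gluconeogenic enzyme, was at least doubled in hypothalamus, pituitary, spleen lymphocyte and bone, while liver was at -0.93 and kidney at -0.13. In the circadian list 11 of 14 were negative (median -0.12). Nr1d1, a repressor of the clock, went the other way at 0.70 ± 0.19 (SE, n = 6), with 382, 480, 177, 410, 279 and 180 at 24 months against 302, 235, 186, 165, 169 and 92 at 4 months. Per1 was at -0.67, with hypothalamus at -2.06 and kidney at -1.68. The sources used here do not give the hour at which each cohort was sampled.

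In the oxidative phosphorylation list 52 of 71 tested genes were negative (median -0.08), with list medians of -0.34 in hypothalamus and -0.36 in liver and of 0.12 and 0.11 in pituitary and spleen lymphocyte. Atp5me, a subunit of the ATP synthase, was lower in 6 of 6 tissues at a mean of -0.45, with liver at -1.55. Its other probe set did not show this, with a mean of -0.08 and liver at 0.23. Antioxidant genes had 29 of 47 positive (median 0.10), with medians of -0.11 in hypothalamus and in kidney, and without bone the median was 0.03. Hmox1, which breaks down heme, had 430, 269, 1807, 781, 160 and 1692 at 24 months in the order hypothalamus, pituitary, spleen lymphocyte, liver, kidney, bone, against 232, 281, 640, 363, 113 and 990 at 4 months. Pituitary was the only tissue in which Hmox1 was lower at 24 months, and its mean difference was 0.78 ± 0.19 (SE, n = 6; adjusted p = 0.938, limma). Proliferation genes had 29 of 43 positive (median 0.07), with a bone median of 0.58, but without bone 20 were positive and 23 negative (median -0.01). Rrm1, a subunit of ribonucleotide reductase, was positive in 6 of 6 tissues at 0.66. Lists often named in work on ageing stood near the level of all genes in their means over the tissues. The cell cycle inhibitor, p53 and senescence list had 11 of 24 positive with no gene at an unadjusted p under 0.05. The insulin, IGF, mTOR and sirtuin list had 23 of 43 positive and 1 such gene, and the DNA repair list had 21 of 41 positive and 2 such genes, 1 in each direction. Their medians lay between -0.005 and 0.02, and each changed sign under at least 1 other scaling. Single tissues of the cell cycle list differed. At least 2-fold higher were 3 of 22 measured genes in kidney and 3 of 19 in hypothalamus, against 0.489% and 3.99% of all genes there. In hypothalamus 1 was 2-fold lower. In bone 5 of 24 were 2-fold lower and 2 higher, against 6.51% and 4.71%.

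Ribosomal proteins had 24 of 40 positive, or 18 without bone, and the proteasome 13 of 33, with no gene at an unadjusted p under 0.05 in either. Heat shock genes had 30 of 46 negative, Hspa4 at -0.62 being the 1 such gene. Lysosomal genes had 22 of 42 negative, immediate early genes 13 of 24 and hypoxia genes 16 of 29. Of the hypoxia genes 3 were higher at an unadjusted p under 0.05, against 2.74% of all genes, namely Hmox1, the glucose transporter Slc2a3 at 0.53 and Hk2. Hk2, the hexokinase of muscle and proliferating cells, was positive in 6 of 6 tissues at 0.47. Neuronal genes had 12 of 23 positive, plasma cell genes 2 of 4 and adipocyte genes 9 of 11. In hypothalamus 21 of the 30 neuronal genes measured at both ages were lower at 24 months (median -0.30), while in liver 11 of 13 were higher. Endothelial genes had 10 of 17 negative (median -0.14), and without bone 8. The junction protein Pecam1 was at -0.35 and the TGF-beta co-receptor Eng at -0.44, whereas Vwf, a clotting protein of endothelium, was at 0.56 and positive in 6 of 6. Hepatocyte genes had 15 of 19 negative with a median of -0.11. Among those measured at both ages, 20 of 30 were lower in liver (median -0.16) and 12 of 16 in hypothalamus (median -0.38).

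**Figure D4:**
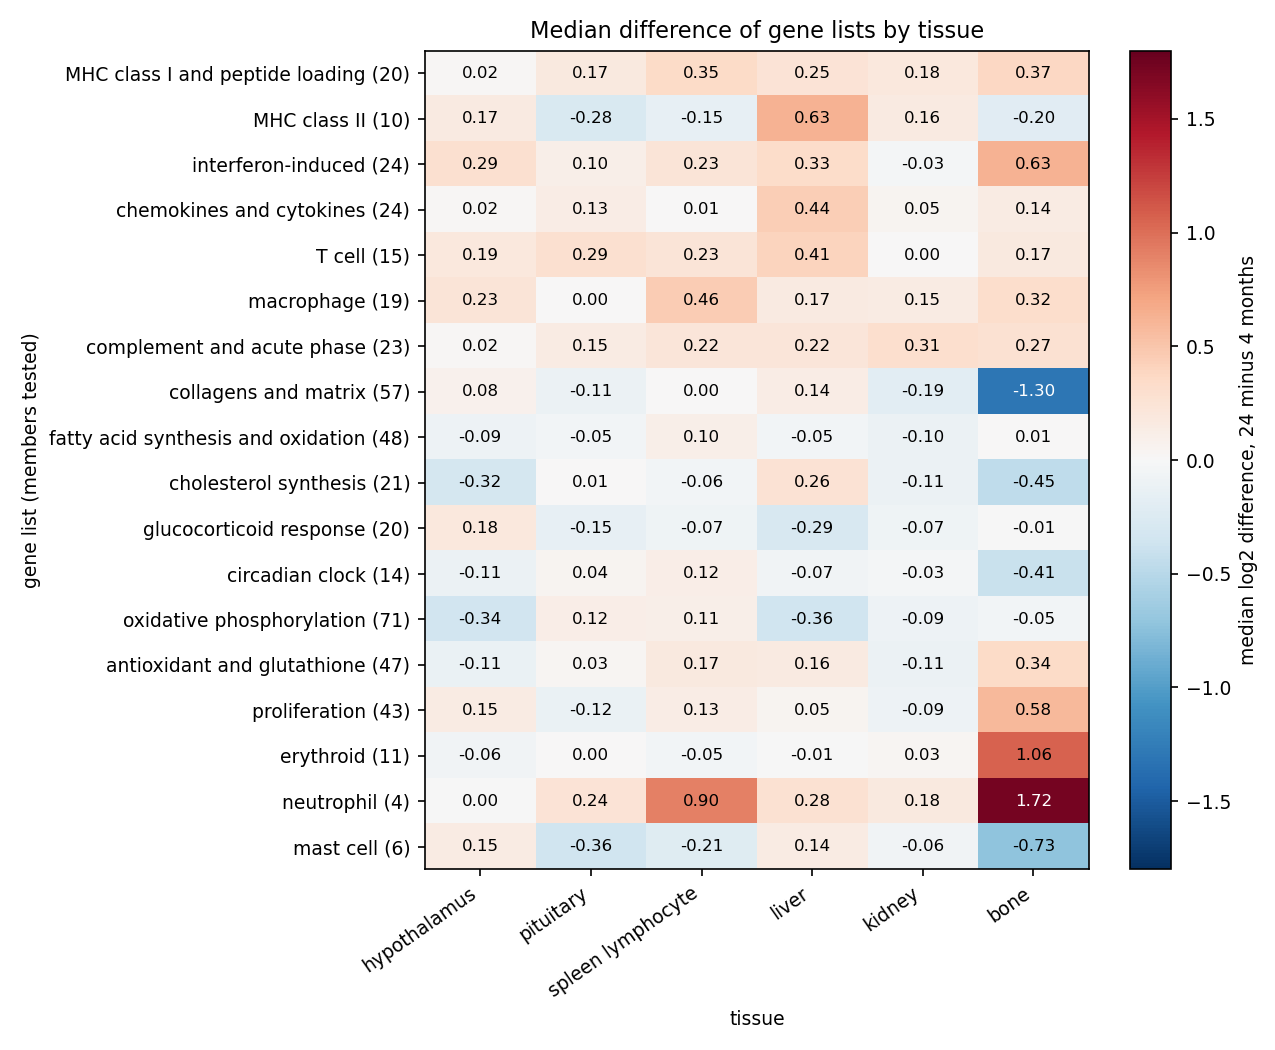
Median log2 difference, 24 minus 4 months, of 18 gene lists (rows, with the members tested) in 6 tissues (columns), coloured red where positive and blue where negative. The bone column holds the furthest values, with the matrix list at -1.30 and the neutrophil list at 1.72.

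Bone stood apart in the matrix and erythroid lists, and shared the direction of its neutrophil list with spleen lymphocyte. Among 62 matrix genes measured in bone, 42 were at least 2-fold lower at 24 months and 1 was higher, and the erythroid and neutrophil lists went the other way, with 11 of 16 and 11 of 12 measured genes at least 2-fold higher. Of all genes measured in bone, 6.51% were at least 2-fold lower and 4.71% at least 2-fold higher. In spleen lymphocyte 5 of 6 measured neutrophil genes were at least 2-fold higher too, against 2.24% of all genes measured there. The summed neutrophil signal over tissues reached 176203 at 24 months and 66388 at 4 months, bone being the highest in each, and the summed matrix signal reached 68302 at 24 months and 236174 at 4 months. Col10a1, the collagen of growing cartilage, had 287 in bone at 24 months against 14450 at 4 months. Bglap, which encodes osteocalcin, had 7074 at 24 months against 21439 at 4 months, and Acp5, of osteoclasts, had 3112 against 15581. The 3 genes, of cartilage, osteoblasts and osteoclasts, were all lower in the 24-month bone array. Without bone Col3a1 had a mean difference of -0.96 over the other 5 tissues. Of 21 skeletal muscle genes measured in bone, 9 were at least 2-fold higher and 2 lower. Over the 6 tissues 4 of 6 mast cell genes were negative, with the mast cell tryptase Tpsb2 at -0.97 and the transcription factor Gata2, positive in 6 of 6, at 0.36.

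Within single tissues, with 1 array at each age and no replicate check, the number of genes at least 2-fold apart differed widely. Bone had 365 genes higher at 24 months and 505 lower (4.71% and 6.51% of 7753 measured on both arrays), and hypothalamus 313 and 320 (3.99% and 4.08% of 7840). Liver had 233 higher and 131 lower (3.08% and 1.73% of 7565), a balance that became 187 and 190 under quantile normalization and 153 and 250 under median centring. Spleen lymphocyte had 168 and 121 (2.24% and 1.62% of 7490). Pituitary had 62 and 59 (0.767% and 0.73% of 8083), and kidney 39 and 35 (0.489% and 0.439% of 7972). Under median centring the hypothalamus had 233 higher and 474 lower.

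**Figure D5:**
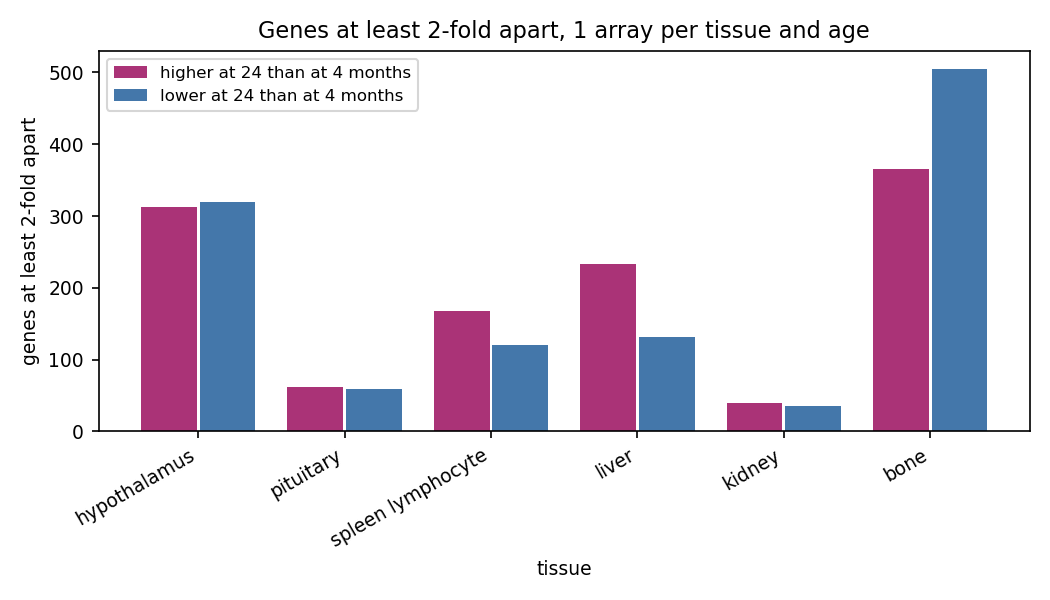
Number of genes at least 2-fold higher (left bars) or lower (right bars) at 24 than at 4 months in each tissue, with 1 array per tissue and age and a signal of at least 100 on both. Bone and hypothalamus have the highest bars, and kidney and pituitary the lowest.

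The genes furthest apart differed between the tissues. In liver, Cyp2c12, a cytochrome P450 known from female rat liver, had 13266 at 24 months against 1982 at 4 months, and A1bg, a plasma protein, had 1247 against 126. Zfp354a, a zinc finger gene, had 298 at 24 months against 3821. In pituitary, Reg3b, a secreted lectin, had 1345 at 24 months against 124 at 4 months, and Plvap, of fenestrated endothelium, had 112 against 522. In spleen lymphocyte, Slc27a2, a fatty acid transporter, had 2721 at 24 months against 335 at 4 months, and Lef1, a transcription factor of naive T cells, had 629 against 5244. In the same tissue Gzmb, a cytotoxic protease, had 6366 at 24 months against 1625. In kidney, Ptgds, a prostaglandin D synthase, had 1550 at 24 months against 386 at 4 months, and Thrsp, a regulator of fat synthesis, had 131 against 609. In bone, Pglyrp1, a neutrophil protein that binds peptidoglycan, had 6771 at 24 months against 1046 at 4 months.

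In hypothalamus the largest values rested on single probe sets. Rab14, a trafficking GTPase, had 17384 at 24 months against 508 at 4 months, a difference of 5.10, while its other 3 probe sets gave 2.36, -0.22 and -0.39. Ctnnb1, which encodes beta-catenin, had 23861 at 24 months against 983 at 4 months, while its others gave -0.65, -1.82 and 0.00. Slc3a1, an amino acid transporter subunit, had 13948 against 484 on its only probe set.

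Few genes were shared between tissues at that fold. Of the 2-fold differences, 1005 higher and 1037 lower genes occurred in 1 tissue, 76 and 59 in 2 tissues, and 7 and 5 in 3 or more, and none in 5 or 6. Among all 10411 genes, 2077 were at least 2-fold apart in some tissue. Of those, 112 were 2-fold higher in at least 1 tissue and 2-fold lower in another. The 7 that were higher in 3 or more tissues were Pck1 and RT1-CE10 in 4, and RT1-CE12, Ighl2, Stx3, Sv2b and Ubd in 3. The 5 lower ones were Col3a1 in 4, and Acsl3, Insig1, Slc38a2 and Tp53inp2 in 3. Sv2b, a synaptic vesicle protein, had 3648 in hypothalamus at 24 months against 226 at 4 months, and 1068 in kidney against 285. Its mean difference was 1.23 ± 0.45 (SE, n = 6), and 0.68 without hypothalamus. The other 2 probe sets of Sv2b, which reached 100 on 6 and 4 of the 12 arrays, averaged -0.09 and 0.11. Across all 8510 genes, which are not independent of one another, the differences of 2 tissues were close to uncorrelated, with Pearson's r between -0.08 and 0.07 over the 15 pairs of tissues.

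The 10- and 18-month arrays did not enter the contrast, and their own difference was read for the genes whose sign agreed in 6 of 6 tissues. Of the 129 genes higher at 24 months, 87 (67.4%) were also higher at 18 than at 10 months in their mean over tissues, against 53.1% of all genes. Of the 107 lower genes, 71 (66.4%) were lower at 18 than at 10 months, against 46.9%. Both middle ages lay between 4 and 24 months for 66 of the 129 (51.2%) and 67 of the 107 (62.6%), against 19.8% of all genes. The 4 ages stood in strict order for 44 of the higher genes, Tspo among them with means of 9.76, 9.99, 10.16 and 10.27, and for 41 of the lower ones, against 6.05% and 5.08% of all genes in the upward and downward order. The counts of both middle ages lying between and of strict order share their 4- and 24-month arrays with the choice of the genes. Choosing genes for a gap between those ages raises both counts by itself, so that they are description only.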

How the data were processed

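RNA of 6 tissues at 4, 10, 18 and 24 months was hybridized to RAE230A arrays, 24 in all, with 10 rats pooled per array. The deposited values are MAS5.0 signal intensity, which the authors scaled globally to a target of 500; the sources used here do not state its version. Of 15923 probe sets, 12783 carried 1 gene symbol, 312 several, 2771 none and 57 were controls. Those with 1 symbol gave 10411 genes, 12748 probe sets being found in RefSeq (GRCr8), from which the promoter windows were taken. Of the 1868 genes with several probe sets, the one at 100 or more on most of the 24 arrays was kept.

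Signals were floored at 100 and log2 transformed. Genes at 100 or more on at least 6 of the 12 arrays of 24 and 4 months entered limma 3.58.1 in R 4.3.3 (lmFit, eBayes, tissue as a block; 5 residual degrees of freedom), at an adjusted p of 0.05. The pairing comes from the tissue labels. Counts within a tissue needed 100 on both arrays and a 2-fold ratio. Named genes were the 10 of each direction in 6 of 6 tissues with the largest weakest difference, up to 3 list members per direction, and the furthest genes of each tissue. The other genes in the text, among them Col1a1, Ctnnb1, Gzmb and those 2-fold apart in 3 or more tissues, were named after their values were seen. Members and the 33 gene lists were chosen with earlier results of these data known. Floors, scalings, filters, covariates and left-out tissues were varied. Adrenal arrays were not analysed here. Array signals carry no read depth; the number of arrays limits the precision.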

Additional observations from a re-analysis of the deposited data

Results flagged for a closer look

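The 6 tissue differences of 68 genes were examined, and 9 genes had 1 tissue far from the other 5. The gap was of a size that chance gives in about 1 in 20 groups of equal spread. The spread was not equal, the SD of the differences over all tested genes being 0.33 in kidney and 0.67 in bone. Many of the genes were named for their differences, for which the limit makes no allowance. Liver was the tissue set apart for 5 of the 9. Psmb8 was at 1.01 in liver and at 0.30 to 0.53 elsewhere. Cxcl10 was at 1.13 in liver and at 0.21 to 0.44 elsewhere, and Ntn1 at 0.98 in liver and at 0.21 to 0.33 elsewhere. RT1-CE16 was at -0.25 in liver, the only negative value, and at 0.95 to 1.56 elsewhere. Atp5me was at -1.55 in liver and at -0.35 to -0.13 elsewhere, but its other probe set was at 0.23 in liver. Bone was that tissue for 3 genes. Tspo was at 1.43 in bone and at 0.24 to 0.43 elsewhere, Eri3 at -2.08 in bone and at -1.01 to -0.40 elsewhere, and Smpd3 at -2.78 in bone and at -0.80 to -0.22 elsewhere. Hsd11b1 was at 1.92 in spleen lymphocyte and at 0.08 to 0.68 elsewhere. Each value is a single pair of arrays.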

How the results depend on the processing

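The number of genes higher at 24 months in limma was 0 as reported. It was 2 with a floor of 200, 2 when 100 was required on all 12 arrays, 1 with array weights and 2 with a trended and robust eBayes, RT1-CE10 being called in each of these and RT1-CE12 in all but array weights. It was 0 in every other setting, and the number of lower genes was 0 in all 22. With the tissue block left out (no replicate block) there were 0 calls, and 17 higher and 0 lower genes at an unadjusted p under 0.05. Leaving out 1 tissue at a time gave 232 to 283 genes higher and 190 to 234 lower in all of the other 5 tissues, fewer signs having to agree. Leaving out the spleen lymphocyte and liver pairs, chosen after seeing the data because their Actb ratios differed most between the ages, gave 500 and 557 in the other 4 tissues, and 0 calls in limma. Of 775 values of 38 named genes over these settings, none reversed. These genes were named for their differences on the same arrays, many of them for the same sign in every tissue. Leaving out a tissue could not reverse the mean of those, so that the count is no test of stability. When 100 was required on only 1 of the 2 arrays, the 2-fold counts were 258 higher and 191 lower in spleen lymphocyte, 381 and 202 in liver, 89 lower in pituitary and 61 lower in kidney. With a 3-fold limit they were 89 and 50 in hypothalamus, 6 and 7 in pituitary, 31 and 12 in spleen lymphocyte, 29 and 16 in liver, 5 and 3 in kidney, and 83 and 225 in bone. Median centring gave 153 and 250 in liver. With 1 pooled array per tissue and age, a difference within a tissue has no error, and values under 100 have no order.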
